A study of Mus musculus with 30 samples.

Results

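Kinesins are the motor proteins that carry cargo or push and pull along microtubules, and their genes were followed here through the first days of the mouse male germline. The members are the rows of the deposited expression table whose symbol is Kif or Kifc followed by a number and at most 1 letter from a to c, which gave 42 of the 20889 genes listed. They were sorted by textbook role into 13 mitotic kinesins, 8 kinesins of meiosis, cilia and flagella, 16 transport kinesins and 5 others. Kif2a was placed with the others and Kif2b with the cilium class, though both are relatives of the mitotic Kif2c. The name of that class takes in meiosis, but no member of it is described below by a role in meiosis. Kif3a and Kif3b, subunits of the motor of intraflagellar transport, which builds cilia, were placed with transport. Of the 42 symbols, 41 are current RefSeq symbols, and Kif4b is listed by RefSeq as a synonym of Kif4-ps, a transcribed pseudogene. The match takes no kinesin with another kind of name, such as Cenpe, the centromere motor, which is given among the partners further on.

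RNA was sequenced from testis cells of C57BL/6 mice labelled as spermatogonia, at postnatal days 0, 7, 12 and 14 (P0, P7, P12 and P14), and the table gives FPKM, a level scaled to transcript length and sequencing depth. The 11 groups were cells bound by magnetic beads to THY1 (CD90.2) at P0, P7, P12 and P14, cells bound to KIT (CD117) at P7, P12 and P14, cells sorted by flow cytometry for an Oct4-GFP reporter at P0 and P7 or an Id4-GFP reporter at P7, and a group labelled VASA THY1 at P7. For that last group the sorting protocol speaks of Vasa-GFP cells from day 0, while its label gives day 7, and the label is followed here. None of the groups carried a deletion or treatment, GFP marks the activity of a transgene rather than the protein it is named for, and the number of animals pooled in a group is not given in the sources used here. Of the 16 RNA libraries, 2 stand behind each of 5 groups (THY1 at P0, P7 and P12, KIT at P7 and P12) and 1 behind each of the other 6, but the table holds 1 value per group. No difference therefore has a replicate error or a test, and every fold is a description of these libraries.

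A kinesin motor domain walks on microtubules by burning ATP, and the rest of the protein sets the cargo. Mitotic kinesins build the spindle, move chromosomes and finish cytokinesis, and dividing spermatogonia need them. Other family members carry vesicles and organelles in the cell body or build the axoneme, which in the male germline becomes the sperm tail. In the testis, THY1 is used to enrich undifferentiated spermatogonia and KIT marks differentiating ones, while meiosis begins in the second week after birth.

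Promoter sequence was compared first because the mitotic members moved the same way between KIT and THY1 cells at P12 and P14. In KIT cells across age they did not move alike. RefSeq promoters of build GRCm38.p6, 250 bases before to 50 bases after the start, were found for 33 of the 42 genes. The words TTTGAA and TTCGAA, the core of the cell cycle homology region through which many late cell cycle genes are repressed outside division, were searched on both strands, on which TTCGAA reads the same. At least 1 of these words was in 11 of 12 mitotic promoters, all but that of Kif18a, against 0 of 10 transport promoters and 19.4% of 27025 promoters in the table. CCAAT was in 8 of 12 mitotic promoters against 37.9% of all, and both kinds of word were in the same 8 of 12 against 7.70% of all. The windows of 5 mitotic genes run from 80 bases before to 20 bases after the start, 5′ to 3′ on the gene's own strand, with the cell cycle homology words and CCAAT in capitals, which reads ATTGG where it lies on the other strand. They are examples with a cell cycle homology word near the start. The genes are Kif11 at chr19:37376302-37376401 (plus strand), Kif15 at chr9:122951001-122951100 (plus strand), Kif22 at chr7:127042401-127042500 (minus strand), Kif18b at chr11:102925105-102925204 (minus strand) and Kif23 at chr9:61946780-61946879 (minus strand).
Kif11: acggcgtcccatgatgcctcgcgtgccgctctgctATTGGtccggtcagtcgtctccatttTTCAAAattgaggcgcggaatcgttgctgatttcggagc
Kif15: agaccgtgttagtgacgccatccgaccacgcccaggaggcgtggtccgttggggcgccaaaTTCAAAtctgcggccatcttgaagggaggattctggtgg
Kif22: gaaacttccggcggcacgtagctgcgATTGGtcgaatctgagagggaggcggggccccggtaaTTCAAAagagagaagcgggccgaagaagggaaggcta
Kif18b: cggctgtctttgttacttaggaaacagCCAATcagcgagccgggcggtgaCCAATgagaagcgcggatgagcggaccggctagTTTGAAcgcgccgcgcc
Kif23: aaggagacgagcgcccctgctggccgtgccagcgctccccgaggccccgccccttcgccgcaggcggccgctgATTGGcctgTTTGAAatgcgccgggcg

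The near-identical pair Kifc1 and Kifc5b, minus-end motors that focus spindle poles, is shown in the same way from chr17:33890614-33890713 (minus strand) and chr17:26917011-26917110 (plus strand). Their 300-base promoters share an unbroken run of 68 bases, and the word in Kifc5b lies after the end of the window.
Kifc1: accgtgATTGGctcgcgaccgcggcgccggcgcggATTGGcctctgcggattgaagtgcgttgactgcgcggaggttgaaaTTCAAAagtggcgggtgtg
Kifc5b: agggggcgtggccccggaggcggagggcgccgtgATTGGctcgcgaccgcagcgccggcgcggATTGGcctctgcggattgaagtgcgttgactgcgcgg

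Among the kinesins of meiosis, cilia and flagella, GTTGCC, the core of the X-box bound by RFX factors at many cilium genes, was in 3 of 7 promoters (Kif9, Kif17 and Kif24) against 12.7% of all promoters, 3 of 10 transport and 2 of 12 mitotic ones. Kif24 and Kif27 also held a cell cycle homology word. TGACG, the core of the cyclic AMP response element, was in 3 of 7 promoters here, 7 of 12 mitotic and 6 of 10 transport promoters, against 21.0% of all. The windows of Kif24 at chr4:41464829-41464928 (minus strand) and Kif9 at chr9:110476878-110476977 (plus strand), whose levels were highest in the same group, have GTTGCC in capitals besides the earlier words. A word match is a description of these letters and not a measured binding site.
Kif24: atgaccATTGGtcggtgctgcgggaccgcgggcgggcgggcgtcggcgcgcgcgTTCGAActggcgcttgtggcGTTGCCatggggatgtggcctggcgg
Kif9: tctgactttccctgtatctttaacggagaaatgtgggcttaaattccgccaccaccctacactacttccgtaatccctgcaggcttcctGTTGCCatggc

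Most kinesins were expressed in every group. Of the 42 genes, 38 reached 5 FPKM in at least 1 group and 22 stood at 5 FPKM or more in all 11. Kif2b, Kif12, Kif19a and Kif26b never reached 5 FPKM, and only Kif12 was listed at 0 in any group. Kif20a was the highest kinesin in 8 of the 11 groups, Kif5b in THY1 cells at P0 and P12 and Kif23 in KIT cells at P12. All levels compared between genes here are FPKM, which are scaled to transcript length. Levels ranged over at least 2-fold on the log2(FPKM + 1) scale across groups in 39 genes and over at least 4-fold in 11.

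**Figure D1:**
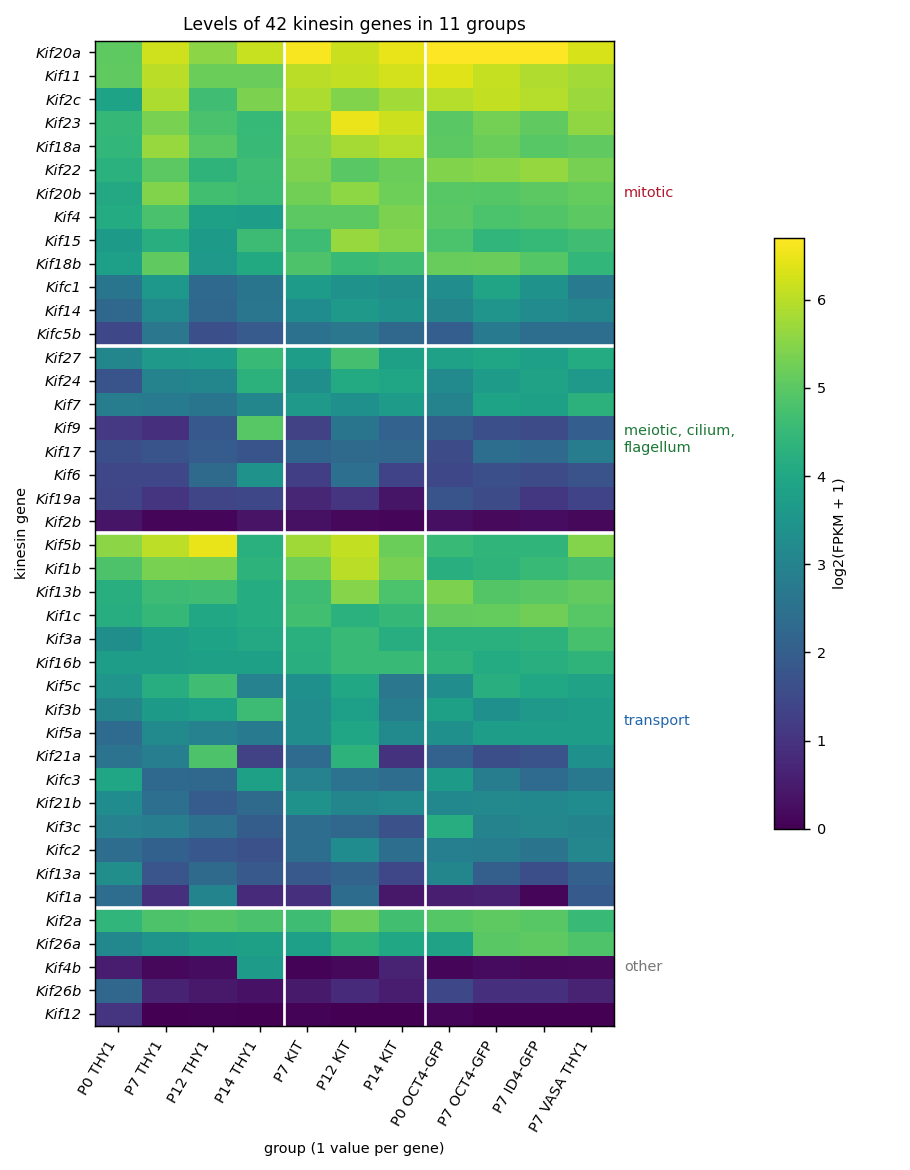
Levels of the 42 kinesin genes (rows, by role) in the 11 groups (columns, 1 value each), coloured by log2(FPKM + 1). The mitotic block is dimmest in THY1 cells at P0, P12 and P14, and Kif9, Kif6 and Kif4b are brightest in THY1 cells at P14.

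The labelled cell type was checked with germ cell genes. Ddx4, the germ cell helicase, lay between 65.0 (THY1 at P0) and 248 FPKM (THY1 at P14), and Dazl between 257 and 931. They are 2 of 12 germ cell genes, whose median lay between 21.0 (THY1 at P0) and 93.4 FPKM (Oct4-GFP at P7). The lowest of the 12 stood at 0.022 in KIT cells at P14 and at 0.462 to 6.79 elsewhere. At P14, 4 of the 12 were lower in KIT than THY1 cells and 1 was higher, against 7.51% and 4.11% of all genes. Markers of other cells differed between groups: the median FPKM of 10 fibroblast and stroma markers was 473 in THY1 cells at P0 against 1.13 to 91.2 elsewhere, and that of 14 Sertoli markers ran from 0.925 in Id4-GFP to 25.6 in THY1 cells at P12. The same list gave 24.7 in VASA THY1 cells. In such mixtures fewer cells of a type and less RNA per cell cannot be told apart. The germ cell genes were Ddx4, Dazl, Mael, Tdrd1, Tdrd9, Dnd1, Nanos2, Nanos3, Sall4, Zbtb16, Lin28a and Rnf17. Their geometric mean sets the germ cell scale used below, and at P14 it was 69.5 in THY1 and 27.4 FPKM in KIT cells. That scale cannot tell fewer germ cells from lower levels of these genes within germ cells.

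A kinesin was counted as different between 2 groups at a difference of log2(FPKM + 1) of at least 1, which is 2-fold, with 5 FPKM or more in the higher group. Between KIT and THY1 cells at P7 no kinesin differed, against 1.31% of all 20889 genes higher and 1.28% lower in KIT, and 2.26% and 2.07% of the 9843 genes with a mean of 5 FPKM or more. At P12, 11 kinesins were higher in KIT cells and 0 lower, against 2.25% and 3.15% of all genes. Among the 30 kinesins with a mean of 5 FPKM or more, 9 were higher and 0 lower, against 4.10% and 5.32% of such genes. At P14, 4 were higher in KIT cells and 5 lower, against 4.11% and 7.51% of all genes and 7.80% and 11.1% of those with a mean of 5. The P12 count, 26.2% of the 42 kinesins, was above its background, and the P14 counts, 9.52% higher and 11.9% lower, were nearer to theirs.

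Across age in THY1 cells, P7 against P0 gave 7 kinesins higher and 2 lower, against 3.30% and 8.95% of all genes and 6.52% and 9.97% of those with a mean of 5. The 7 genes are 16.7% of the kinesins, above the background, but this count depended on the scale and on the P0 group. Scaled to the geometric mean of 12 germ cell genes in each group, 0 kinesins were higher and 9 lower, against 65 and 8423 of all genes. With P0 Oct4-GFP cells in place of P0 THY1 cells 2 kinesins were higher and 3 lower, against 1302 and 1125 of all genes. P12 against P7 gave 2 higher and 4 lower (2.92% and 1.11% of all genes, 4.49% and 1.69% of those with a mean of 5). P14 against P12 gave 5 higher and 4 lower (8.06% and 8.43%, and 12.5% and 14.6%), which is close to the background. In KIT cells P12 against P7 gave 4 higher and 0 lower (2.78% and 1.94%, and 4.92% and 3.48%), and P14 against P12 gave 0 higher and 2 lower (2.60% and 5.26%, and 5.08% and 9.99%). Oct4-GFP cells at P7 against P0 gave 1 higher and 2 lower (1.13% and 1.36%, and 2.16% and 1.85%). Comparisons that follow each other in age share a group, and so do those of KIT with THY1 and those across age.

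The 13 mitotic kinesins had the highest summed level of the 4 classes in every group but THY1 cells at P12, where the transport class was above them, and THY1 cells held less of it than the others at P0, P12 and P14. Their summed level was 206, 460.4, 251 and 300.3 FPKM in THY1 cells at P0, P7, P12 and P14 and 497, 531 and 553 in KIT cells at P7, P12 and P14. The Oct4-GFP cells held 492 and 499, the Id4-GFP cells 467 and the VASA THY1 cells 429. THY1 cells at P7 thus lay with the GFP-sorted and KIT cells. As a share of the summed FPKM of all 42 kinesins the class ran from 40.6% in THY1 cells at P12 to 65.4% in KIT cells at P14. Of the 13 genes, 10 were lowest in THY1 cells at P0, the group with the highest fibroblast and stroma markers. Those 10 markers summed to 7497.4 FPKM there and to 56.4 to 1468.5 elsewhere, with none at 0, and their part in the low level was not tested.

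**Figure D2:**
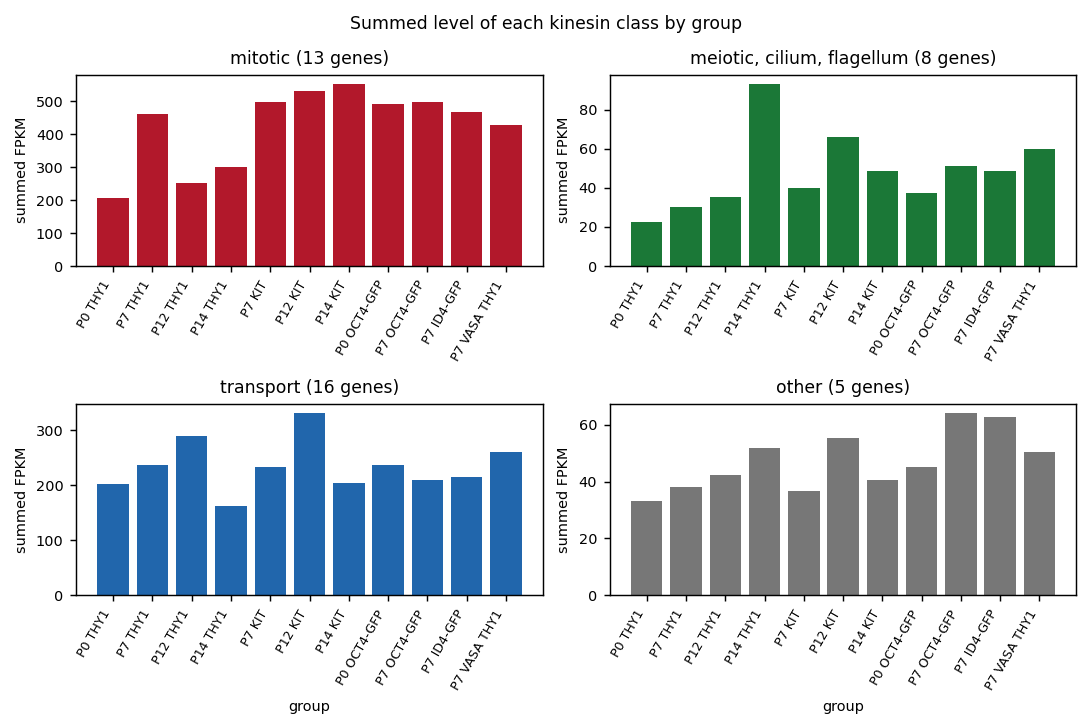
Summed FPKM of the members of each kinesin class (y axis, starting at 0, a separate scale per panel) in the 11 groups (x axis, 1 value each). Mitotic kinesins stand at 206, 251 and 300.3 in THY1 cells at P0, P12 and P14 and at 429 or more elsewhere, and the class of meiosis, cilia and flagella peaks at 93.2 in THY1 cells at P14.

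Kif20a, a midzone motor needed for cytokinesis, was the most abundant kinesin. Its FPKM was 31.8, 73.7, 45.1 and 69.4 in THY1 cells at P0, P7, P12 and P14, and 99.3, 70.7 and 88.6 in KIT cells at P7, P12 and P14. The GFP-sorted cells gave 103 and 102 in Oct4-GFP at P0 and P7 and 102 in Id4-GFP, and VASA THY1 gave 77.5. It was highest in the 3 groups sorted for Oct4-GFP or Id4-GFP and lowest in THY1 cells at P0. Kif11 slides spindle microtubules apart and is needed for a bipolar spindle. FPKM of Kif11 was 32.8, 63.7, 35.5 and 35.0 in THY1 cells at P0, P7, P12 and P14, and 63.0, 66.7 and 75.5 in KIT cells at P7, P12 and P14. In Oct4-GFP cells it was 81.6 at P0 and 68.8 at P7, in Id4-GFP cells 59.5 and in VASA THY1 cells 53.4. KIT cells were above THY1 cells by 0.89 at P12 and 1.09 at P14 as differences of log2(FPKM + 1), with -0.02 at P7. Kif2c, a kinesin that takes microtubules apart at centromeres, had the steepest first step. Its level was 13.8, 58.3, 24.1 and 41.1 in THY1 cells at P0, P7, P12 and P14, and 58.0, 42.4 and 54.0 in KIT cells at P7, P12 and P14. Oct4-GFP cells held 61.6 at P0 and 66.9 at P7, Id4-GFP cells 61.2 and VASA THY1 cells 50.7. The difference of log2(FPKM + 1) between THY1 cells at P7 and P0 was 2.00, the largest among the 42 kinesins in that comparison, and from P7 to P12 it was -1.24.

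Kif23 bundles the central spindle with Racgap1. It stood at FPKM of 21.2, 40.2, 26.7 and 21.4 in THY1 cells at P0, P7, P12 and P14, and 46.6, 89.2 and 72.4 in KIT cells at P7, P12 and P14. At P0 and P7 the Oct4-GFP values were 30.5 and 38.7, with 32.7 in Id4-GFP and 47.4 in VASA THY1 cells. KIT cells at P12 and P14 were the highest groups for Kif23, and their difference from THY1 cells of the same age was 1.71 at both ages. Kif15, which works beside Kif11 on the spindle, showed the largest gap at P12. Its values were 11.5, 17.3, 11.6 and 23.3 in THY1 cells at P0, P7, P12 and P14, and 23.5, 50.002 and 42.6 in KIT cells at P7, P12 and P14. The GFP-sorted cells gave 26.7 and 20.1 in Oct4-GFP at P0 and P7 and 21.4 in Id4-GFP, and VASA THY1 gave 24.3. The difference between KIT and THY1 cells was 2.02 at P12, the largest of the 42 kinesins in that comparison, then 0.85 at P14 and 0.42 at P7. Kif15 was also the one mitotic kinesin counted as higher in KIT cells at P12 than at P7, by 1.06.

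The other mitotic members are given by their lowest and highest groups. Kif18a, which damps chromosome movement at the plate, ran from 20.6 FPKM in THY1 cells at P0 to 60.9 in KIT cells at P14. Kif22, a chromosome arm motor, ran from 18.5 in THY1 cells at P0 to 48.6 in Id4-GFP cells, and Kif20b from 15.5 to 46.7 in KIT cells at P12. Kif4, the chromokinesin that shapes chromosomes and the midzone, was lowest in THY1 cells at P14 (12.5) and highest in KIT cells at P14 (40.4). Kif18b was lowest in THY1 cells at P12 (11.1) and highest in Oct4-GFP cells at P7 (35.0). Kif14, a cytokinesis motor, ran from 3.73 to 11.2, Kifc1 from 3.88 to 14.1 and Kifc5b from 1.75 to 5.80. Kifc1 and Kifc5b are close copies, so how fragments were divided between them is uncertain.

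As a class the mitotic kinesins stood higher in KIT than in THY1 cells at P12 and P14, and none was called at P7. At P12, 6 of 13 were higher in KIT cells (Kif4, Kif14, Kif15, Kif23, Kifc1 and Kifc5b), and all 13 differences were above 0 with a median of 0.96 on the log2(FPKM + 1) scale, against 0.03 over the 9843 genes with a mean of 5 FPKM. At P14, 4 of 13 were higher (Kif4, Kif11, Kif18a and Kif23), again with all 13 above 0, and the median was 0.72 against 0.12. At P7, 7 of 13 were above 0 and the median was 0.06. Kif2a, which also acts at spindle poles but was sorted to the others, had differences of 0.25 at P12 and -0.10 at P14. The direction of all 13 at P12 and at P14 was the same after quantile normalization and after scaling to the 12 germ cell genes. The germ cell scaling moved the median of the 9843 genes up, to 0.29 at P12 and 1.39 at P14. Differences already above 0 could not turn under it. Whether the differences at P7 and P12 differ was not tested. Markers of other cells differed in both directions. At P12 the summed level of 14 Sertoli markers was 1863.1 FPKM in THY1 and 772 in KIT cells, and at P14 that of 20 late meiotic and spermatid genes was 3573.6 and 166. Of 10 fibroblast and stroma markers 4 were lower in KIT cells at P12 and 8 at P14, of 8 myoid markers 7 and 5, and of 11 macrophage markers 6 and 5. Of 10 Leydig markers 5 were higher in KIT cells at P12 and 7 at P14, with summed levels of 237 against 95.5 and 668 against 186. Over all genes 2.25% and 4.11% were higher in KIT cells at P12 and P14, and 3.15% and 7.51% lower. The part of these markers in the mitotic differences was not tested.

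**Figure D3:**
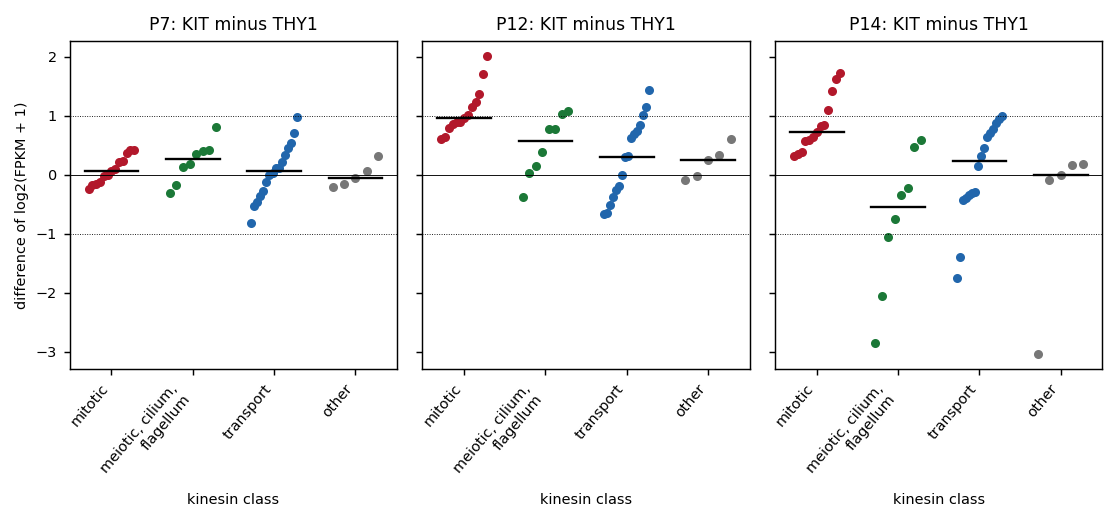
Difference of log2(FPKM + 1) between KIT and THY1 cells at P7, P12 and P14 (panels) for each kinesin (point), by class, with the class median as a bar and dotted lines at 2-fold. All 13 mitotic points lie above 0 at P12 and P14, and the lowest points at P14 are Kif4b, Kif9 and Kif6.

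Across age in THY1 cells the mitotic kinesins were higher at P7 than at P0 and lower again at P12. P7 against P0 had 6 of 13 higher (Kif2c, Kif18a, Kif18b, Kif20a, Kif20b and Kifc5b), against 3.30% of all genes. All 13 were above 0 with a median of 0.97, against 0.08 over genes with a mean of 5 FPKM. On the germ cell scale, where the median of the 9843 genes was -1.11, the mitotic median was -0.13. Of the 42 kinesins 0 were higher and 9 lower on it, against 65 and 8423 of all genes. The comparison of P7 THY1 with P0 Oct4-GFP cells, chosen after seeing the data, gave a mitotic median of -0.06. In that comparison 2 kinesins were higher and 3 lower, against 1302 and 1125 of all genes. P12 against P7 had 4 of 13 lower (Kif2c, Kif18b, Kifc1 and Kifc5b), against 1.11% of all genes. All 13 were below 0 with a median of -0.83, and all 13 were also below 0 after quantile normalization and on the germ cell scale. That scale moved the median of the 9843 genes down, to -0.097 at this step. Differences already below 0 could not turn under it. Kif2a, sorted to the others, had a difference of 0.10 at that step. Over the same step 6 of 14 Sertoli markers were higher, with sums of 938 and 1863.1, as were 4 of 8 myoid and 4 of 11 macrophage markers (1 was lower). Over all genes 2.92% were higher, and the part of those markers was not tested. In Oct4-GFP cells no mitotic kinesin differed between P0 and P7, against 1.13% of all genes higher and 1.36% lower, and the median was 0.06.

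In KIT cells the class kept its sum with age, but its members did not move alike. Kif15 stood at 23.5, 50.002 and 42.6 FPKM at P7, P12 and P14, and Kif18a at 44.1, 54.9 and 60.9. Kif22 went the other way between P7 and P12, with 41.1, 30.5 and 35.8, as did Kif20a and Kif2c given above. Over the same ages the median of 20 meiotic prophase genes in KIT cells was 12.4, 81.8 and 86.2 FPKM, and that of 10 proliferation genes was 87.7, 57.1 and 83.0. Only Kif15 of these passed 2-fold between P7 and P12.

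Genes whose proteins work with the mitotic kinesins had a pattern alike in part. Of 15 spindle and midzone partners, 3 were higher in KIT than THY1 cells at P12, namely Bub1, a checkpoint kinase (1.40), Kntc1, a kinetochore protein (1.296), and Birc5 of the chromosomal passenger complex (1.20), and the median difference was 0.81. At P7 none differed, and at P14 2 were higher with a median of 0.56. Over all genes 2.25% were higher in KIT cells at P12 and 4.11% at P14. THY1 cells at P7 against P0 had 7 of 15 higher and a median of 1.00, against 3.30% of all genes. The partners were not put on the germ cell scale, where the median of the 9843 genes in that comparison was -1.11. From P12 to P14 in THY1 cells, where 8.06% of all genes were higher, 5 of 15 partners were, among them Aurka, the spindle pole kinase, at 13.9 and 66.2 FPKM and Prc1, the midzone bundler, at 33.8 and 90.9, and 0 of 13 mitotic kinesins were. The medians at that step were 0.43 for the partners and 0.29 for the mitotic kinesins, and the difference between the sets was not tested. Cenpe stood at 14.3, 40.0, 26.5 and 18.9 in THY1 cells across age and 39.1, 50.2 and 30.8 in KIT cells.

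The likeness of each kinesin to cell division was described by the correlation over the 11 groups of its log2(FPKM + 1) with the mean of 10 proliferation genes, for the 39 kinesins at 1 FPKM or more in at least 2 groups. Pearson's r for the 13 mitotic kinesins lay between 0.47 and 0.94 with a median of 0.82, and for the 16 transport kinesins between -0.80 and 0.82 with a median of 0.06. The highest were Kif22 at 0.94, Kif20a at 0.92 and Kif11 at 0.90, with Spearman's rho of 0.89, 0.94 and 0.75. Without THY1 cells at P12 and P0, the 2 groups farthest from the median of the list, the mitotic median was 0.49 and its lowest value -0.01, and the transport median was 0.24, so much of the gap between the classes rests on those groups. The groups share cell mixture and age, and no p is given.

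**Figure D4:**
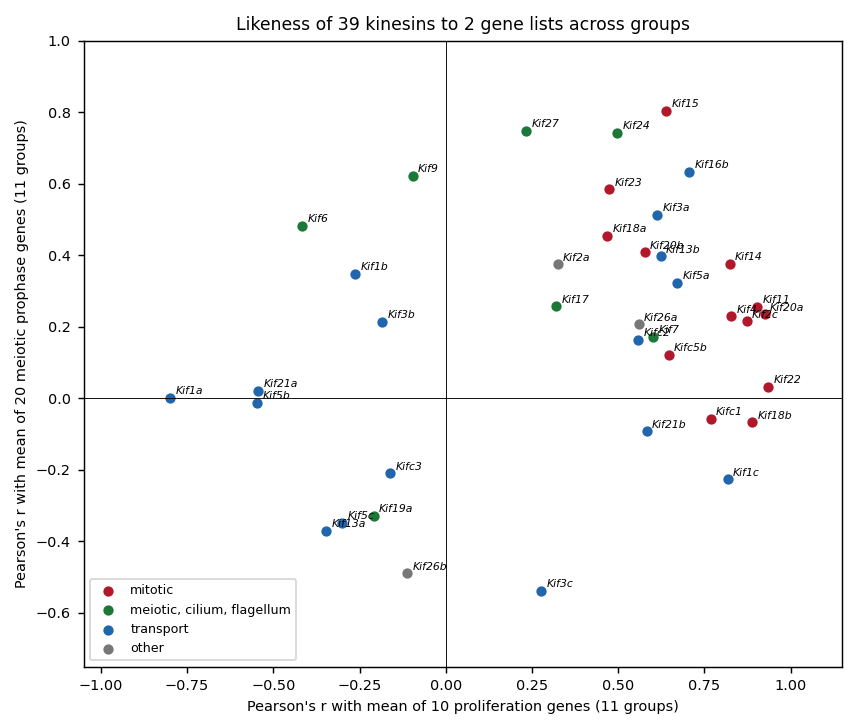
Pearson's r over the 11 groups of each of 39 kinesins with the mean of 10 proliferation genes (x axis) and of 20 meiotic prophase genes (y axis), both as log2(FPKM + 1), coloured by class. Mitotic kinesins lie at 0.47 to 0.94 on the x axis, and Kif15, Kif27 and Kif24 reach 0.80, 0.75 and 0.74 on the y axis.

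Set against 20 meiotic prophase genes instead, the closest kinesins were Kif15 (r of 0.80), Kif27 (0.75) and Kif24 (0.74). Kif9 had an r of 0.62 and a rho of 0.92. With the 2 groups farthest from the list's median left out, KIT cells at P12 and P14, r was 0.47 for Kif15, 0.87 for Kif27, 0.75 for Kif24 and 0.83 for Kif9. The value of Kif15 thus depended on those groups, and those of Kif27, Kif24 and Kif9 did not fall without them. The closest without them was the transport kinesin Kif3b at 0.89, from 0.21 over all 11 groups, and Kif6 reached 0.76. Of the groups kept, THY1 cells at P14, a single library, had the highest summed level of the list, 1704.8 FPKM. That library was also the highest kept for Kif27, Kif24, Kif9, Kif3b and Kif6. How far these values of r rest on it was not tested.

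The summed level of the 8 kinesins of meiosis, cilia and flagella was highest in THY1 cells at P14, where 3 of them (Kif6, Kif9 and Kif24) had their highest value. The sum there was 93.2 FPKM, 15.3% of the kinesin signal, against 22.7 in THY1 cells at P0 and 66.1 in KIT cells at P12, the lowest and highest of the other 10 groups. Kif9 alone held 30.3 of the 93.2 FPKM in THY1 cells at P14 and 5.14 of the 66.1 in KIT cells at P12. P14 THY1 is a single library. Against P12 THY1 cells 3 of 8 were higher (Kif6, Kif9 and Kif24), where 8.06% of all genes were. Against P14 KIT cells 2 of 8 were lower in KIT (Kif6 and Kif9), where 7.51% of all genes were. The median differences were 0.69 and -0.54. The second median was 0.24 on the germ cell scale, where the median of the 9843 genes was 1.39 in place of 0.12. On that scale the differences of P14 from P12 in THY1 cells were 2.82 for Kif9, 0.95 for Kif24 and 0.81 for Kif6, so Kif9 alone of the 3 stayed past 2-fold. At that step the scale moved the median of the 9843 genes to -0.36 from -0.08.

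Kif9, a component of motile cilia and the sperm flagellum, passed 5.14 FPKM in that library alone. FPKM of Kif9 was 1.16, 0.904, 2.57 and 30.3 in THY1 cells at P0, P7, P12 and P14, and 1.502, 5.14 and 3.32 in KIT cells at P7, P12 and P14. In Oct4-GFP cells it was 2.91 at P0 and 2.09 at P7, in Id4-GFP cells 1.91 and in VASA THY1 cells 3.05. The next highest group was KIT at P12. Its difference of log2(FPKM + 1) was 3.13 for THY1 cells at P14 against P12 and -2.86 for KIT against THY1 cells at P14, which was -1.70 on the germ cell scale. Kif6, a close relative of Kif9, had the same peak at a lower level. It stood at 1.71, 1.68, 3.99 and 9.60 in THY1 cells at P0, P7, P12 and P14, and 1.37, 4.50 and 1.56 in KIT cells at P7, P12 and P14. Oct4-GFP cells held 1.76 at P0 and 2.11 at P7, Id4-GFP cells 1.97 and VASA THY1 cells 2.27. The difference was 1.09 and -2.05 in those comparisons.

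Kif24, which restrains the growth of cilia, was lowest in THY1 cells at P0 and highest in THY1 cells at P14. Its FPKM was 2.36, 7.01, 7.43 and 19.0 in THY1 cells at P0, P7, P12 and P14, and 9.20, 16.2 and 14.7 in KIT cells at P7, P12 and P14. At P0 and P7 the Oct4-GFP values were 8.23 and 12.0, with 13.6 in Id4-GFP and 11.2 in VASA THY1 cells. KIT cells at P12 and P14 came next to the P14 THY1 library. Kif27, a relative of Kif7 needed for motile cilia, was at 5 FPKM or more in every group. Its level was 7.37, 11.2, 11.7 and 22.5 in THY1 cells at P0, P7, P12 and P14, and 12.3, 25.7 and 13.0 in KIT cells at P7, P12 and P14. The GFP-sorted cells gave 13.2 and 14.5 in Oct4-GFP at P0 and P7 and 12.8 in Id4-GFP, and VASA THY1 gave 16.5. It was highest in KIT cells at P12, with P14 THY1 cells second, so it was above THY1 cells at P12 (1.07) and not at P14 (-0.75). Kif7, which regulates Hedgehog signalling at the tip of the primary cilium, did not follow. Its FPKM was 6.10, 5.93, 5.07 and 7.49 in THY1 cells at P0, P7, P12 and P14, and 11.1, 9.32 and 11.8 in KIT cells at P7, P12 and P14. In Oct4-GFP cells it was 6.94 at P0 and 13.9 at P7, in Id4-GFP cells 12.9 and in VASA THY1 cells 18.7. The highest group of Kif7 was VASA THY1 and the lowest P12 THY1. The others were low: Kif17 reached 6.12 in VASA THY1 cells, Kif19a 2.34 in Oct4-GFP cells at P0 and Kif2b, a relative of Kif2c, 0.312.

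**Figure D5:**
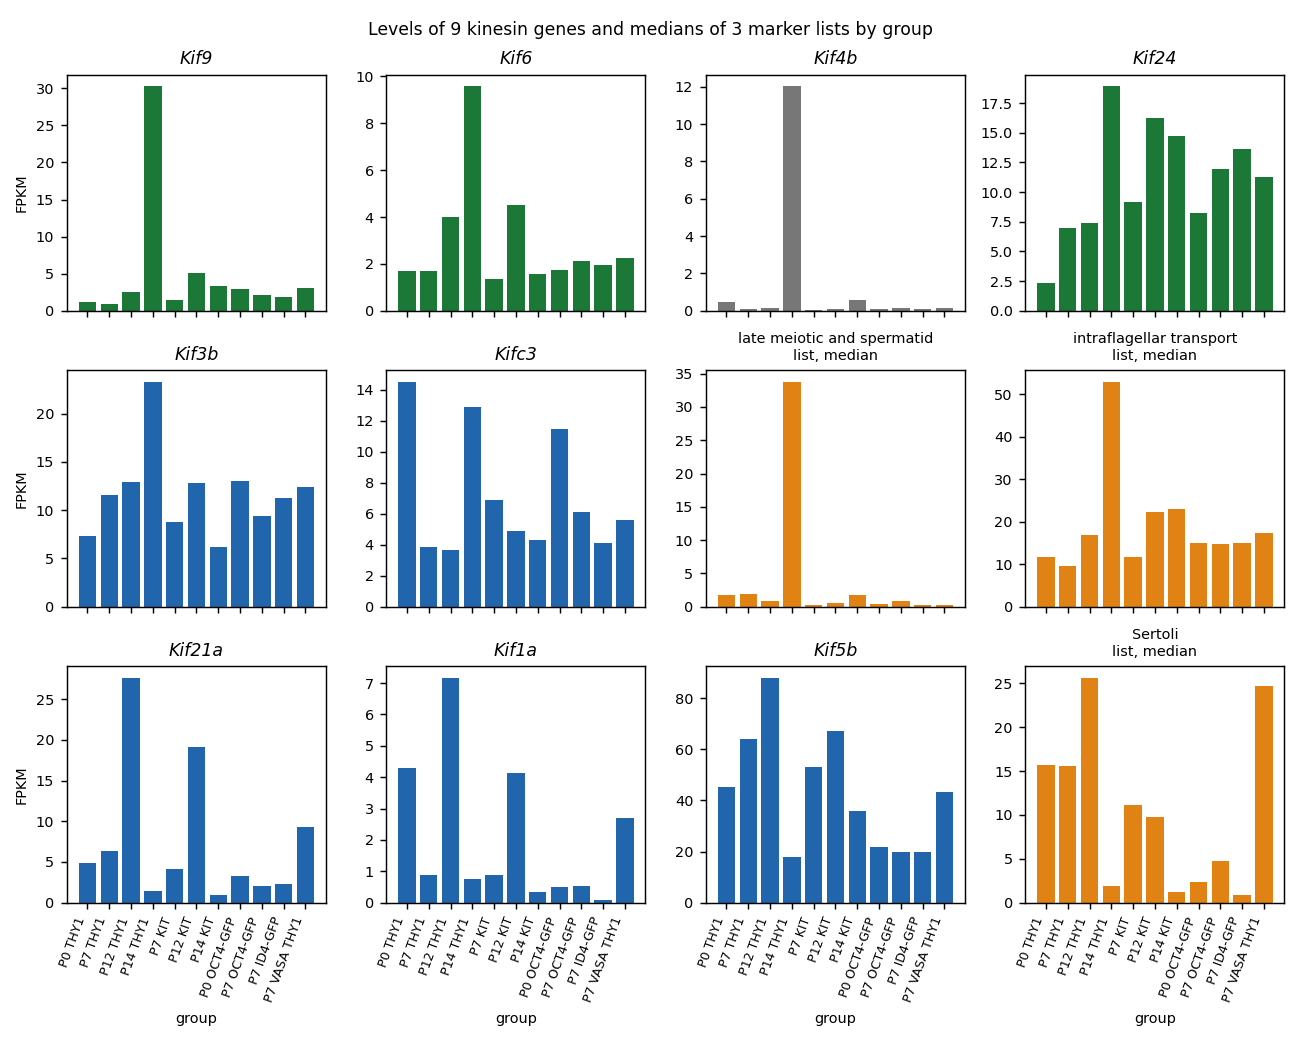
FPKM of 9 kinesins and the median FPKM of 3 marker lists (y axes, starting at 0, separate scales) in the 11 groups (x axes, 1 value each). Kif9, Kif6 and Kif4b peak in THY1 cells at P14 at 30.3, 9.60 and 12.0, where the late meiotic and spermatid list stands at 33.8, and Kif21a peaks at 27.7 in THY1 cells at P12.

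Genes of later germ cells and of the axoneme were high in the same library. The median of 20 late meiotic and spermatid genes was 33.8 FPKM in THY1 cells at P14 and at most 1.96 in any other group, and that of 12 intraflagellar transport genes was 53.0 against 9.68 to 23.0. Of those 12, 9 were higher at P14 than P12 in THY1 cells, led by Ift140 (2.66), Ift80 (2.53), Ift27 (2.50) and Ift172 (2.36). Over all genes 8.06% were higher at that step. Prm1, Prm2, Tnp1 and Tnp2, which pack sperm chromatin, stood at 1.46, 0.584, 4.93 and 0.780 in that library, and Acrv1 of the acrosome was at 0. All 4 were highest in THY1 cells at P7, with Prm1 at 101. The summed level of the 20 late genes was 3573.6 in THY1 cells at P14 and 57.9 to 277 elsewhere. Fibroblast and stroma markers were higher in the P14 THY1 library as well, 8 of 10 against THY1 cells at P12, with sums of 1468.5 and 504 and a median difference of 1.248. The part of later germ cells or stroma in the Kif9 and Kif6 values was not tested. The kinesin-II motor of intraflagellar transport moved with them in part. Kif3b, one of its motor subunits, was highest in that library at 23.3 FPKM against 6.19 in KIT cells at P14, a difference of -1.76 that was -0.53 on the germ cell scale. Its adaptor Kifap3 stood at 32.6 there and 10.9 in THY1 cells at P12. Kif3a, the partner subunit, was at 15.5 and 13.9, below its highest value of 26.1 in VASA THY1 cells.

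The 16 transport kinesins formed no single pattern. Their summed level was highest at P12, with 331 FPKM in KIT and 289.5 in THY1 cells, and lowest in THY1 cells at P14, with 162. KIT against THY1 cells at P12 gave 3 of 16 higher (Kif5a, Kif21b and Kifc2), against 2.25% of all genes. Of the 16 differences 9 were above 0 and 7 below, with a median of 0.31. From P12 to P14, 14 of 16 were below 0 in KIT cells with a median of -0.70. Of these, 2 were counted as lower (Kif5c and Kif21a), against 5.26% of all genes. On the germ cell scale, where the median of the 9843 genes was 0.72 in place of -0.0078, the transport median was -0.04.

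Kif5b, the ubiquitous conventional kinesin heavy chain, was the most abundant of the class. Its FPKM was 45.3, 64.2, 88.1 and 18.0 in THY1 cells at P0, P7, P12 and P14, and 52.9, 67.4 and 35.7 in KIT cells at P7, P12 and P14. Oct4-GFP cells held 21.8 at P0 and 19.9 at P7, Id4-GFP cells 20.01 and VASA THY1 cells 43.4. It was low in the Oct4-GFP and Id4-GFP cells and lowest in THY1 cells at P14, and the difference there from P12 was -2.23. Kif21a, a brake on microtubule growth with a role in neurons, peaked in both groups at P12. Its level was 4.88, 6.35, 27.7 and 1.48 in THY1 cells at P0, P7, P12 and P14, and 4.09, 19.1 and 0.958 in KIT cells at P7, P12 and P14. At P0 and P7 the Oct4-GFP values were 3.30 and 2.05, with 2.31 in Id4-GFP and 9.27 in VASA THY1 cells. THY1 cells differed by 1.96 from P7 to P12 and -3.53 from P12 to P14, and KIT cells by 1.98 and -3.36. Kif1a, a carrier of synaptic vesicle precursors, had the same peak at a lower level. It stood at FPKM of 4.30, 0.879, 7.17 and 0.769 in THY1 cells at P0, P7, P12 and P14, and 0.866, 4.14 and 0.339 in KIT cells at P7, P12 and P14. The GFP-sorted cells gave 0.485 and 0.535 in Oct4-GFP at P0 and P7 and 0.0888 in Id4-GFP, and VASA THY1 gave 2.70. The THY1 difference from P7 to P12 was 2.12.

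Sertoli cell markers and Trak1 moved in part with these 3 genes. The Sertoli list had a median of 25.6 FPKM in THY1 cells at P12, 24.7 in VASA THY1 cells, 15.7 and 15.6 in THY1 cells at P0 and P7, 11.2 and 9.80 in KIT cells at P7 and P12, 1.85 and 1.252 in THY1 and KIT cells at P14 and 0.925 to 4.76 in the Oct4-GFP and Id4-GFP cells. Its summed level over 14 measured markers was 1863.1 in THY1 cells at P12, 772 in KIT cells at P12, 139 in THY1 cells at P14 and 101 in Id4-GFP cells, and none of the 14 was at 0 in any group. Neurons are where these motors are best known, and of 6 measured neuronal markers 5 were at or below 2.39 FPKM in THY1 cells at P12. The exception was Tubb3, a neuronal tubulin, which stood at 20.3, 64.1 and 5.05 in THY1 cells at P7, P12 and P14 and 13.1, 21.8 and 5.52 in KIT cells, with the same P12 peak. Trak1, which links Kif5 motors to mitochondria, stood at 5.89, 19.2 and 5.55 in THY1 cells at P7, P12 and P14. The part of Sertoli cells or other cells in the P12 values was not tested.

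Kif1b, a carrier of mitochondria and vesicles, was highest in KIT cells at P12 and low in the Oct4-GFP and Id4-GFP cells. FPKM of Kif1b was 27.3, 39.9, 38.97 and 19.2 in THY1 cells at P0, P7, P12 and P14, and 36.6, 63.1 and 39.3 in KIT cells at P7, P12 and P14. In Oct4-GFP cells it was 17.6 at P0 and 19.5 at P7, in Id4-GFP cells 21.7 and in VASA THY1 cells 25.5. Kif13b, a relative that binds membrane scaffolds, was highest in the same group, with Oct4-GFP cells at P0 next. Its values were 17.5, 23.3, 24.1 and 16.9 in THY1 cells at P0, P7, P12 and P14, and 23.7, 44.1 and 26.8 in KIT cells at P7, P12 and P14. Oct4-GFP cells held 40.9 at P0 and 29.2 at P7, Id4-GFP cells 30.5 and VASA THY1 cells 32.9. Kif1c, a ubiquitous vesicle and messenger RNA carrier, was lowest in P12 THY1 and highest in P7 ID4-GFP cells. It stood at 17.1, 21.2, 14.9 and 16.8 in THY1 cells at P0, P7, P12 and P14, and 24.6, 18.4 and 21.1 in KIT cells at P7, P12 and P14. At P0 and P7 the Oct4-GFP values were 33.04 and 34.0, with 37.1 in Id4-GFP and 30.2 in VASA THY1 cells. Of the transport class it was the closest to the proliferation genes, with an r of 0.82. Kif3c, a neuronal partner of Kif3a, was higher in Oct4-GFP cells at P0 than at P7. Its FPKM was 6.81, 6.30, 4.64 and 2.92 in THY1 cells at P0, P7, P12 and P14, and 4.27, 3.69 and 2.17 in KIT cells at P7, P12 and P14. The GFP-sorted cells gave 17.0 and 6.97 in Oct4-GFP at P0 and P7 and 7.59 in Id4-GFP, and VASA THY1 gave 7.11. The difference of P7 from P0 in Oct4-GFP cells was -1.18.

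The remaining transport kinesins reached 5 FPKM in at least 1 group each. Kif16b, an endosome motor, lay between 12.3 FPKM (THY1 at P7) and 22.5 (KIT at P12), and Kif3a between 9.14 and 26.1. Kif5c, a neuronal heavy chain, lay between 5.34 (KIT at P14) and 24.2 (THY1 at P12), with the P12 peak of Kif21a and Kif1a, and Kif5a, the other neuronal heavy chain, between 4.08 and 14.8 (KIT at P12). Kif21b ran from 2.85 to 9.75 and Kifc2 from 2.14 to 8.54. Kif13a was highest in THY1 cells at P0 (8.96) and lower at P7 with a difference of -1.56, and it also differed between P0 and P7 in Oct4-GFP cells (-1.04). Kifc3, a minus-end motor at cell junctions, was high in 3 groups, 14.5 in THY1 cells at P0, 12.9 in THY1 cells at P14 and 11.5 in Oct4-GFP cells at P0, and at most 6.89 in the rest. Macrophage markers had medians of 25.8 and 30.7 in THY1 and Oct4-GFP cells at P0. Their medians were 21.4 in Oct4-GFP cells at P7 and 4.51 in THY1 cells at P14. The part of macrophages in the Kif13a and Kifc3 values was not tested.

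Cargo partners and the opposing motors are given for comparison. Of 10 measured kinesin partners, which include the light chains Klc1 to Klc4, 1 was higher in KIT than THY1 cells at P12, Mapk8ip3, a kinesin adaptor of vesicles (1.27), with a list median of 0.25, and none differed at P7 or P14. Over all genes 2.25% were higher in KIT than THY1 cells at P12. Between P12 and P14 in KIT cells 3 of the 10 were lower, against 5.26% of all genes and 9.99% of those with a mean of 5 FPKM. Of 12 dynein and dynactin genes, whose motor walks the other way on microtubules, 4 were lower in KIT cells at P14 and 1 each at P7 and P12, with medians of -0.32, 0.09 and -0.13. Over all genes 7.51% were lower at P14, 1.28% at P7 and 3.15% at P12. The largest difference at P14 was that of Dync2li1, a light chain of the cilium dynein, at -3.04, and it was 2.63 for THY1 cells at P14 against P12. Dync1i1, an intermediate chain of cytoplasmic dynein, had 2.83 for THY1 cells at P7 against P0 and -2.59 at P14 against P12.

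Among the other kinesins Kif2a and Kif4b stood out. Kif2a, which takes microtubules apart at spindle poles and in growing axons, varied little. Its FPKM was 20.4, 27.3, 29.3 and 26.5 in THY1 cells at P0, P7, P12 and P14, and 23.6, 35.0 and 24.7 in KIT cells at P7, P12 and P14. In Oct4-GFP cells it was 29.8 at P0 and 32.2 at P7, in Id4-GFP cells 30.1 and in VASA THY1 cells 21.8. It was the steadiest of the 42 genes, with a ratio of 1.72 between its highest and lowest group. Kif26a, a kinesin that signals without walking, was higher in Oct4-GFP cells at P7 than at P0 by 1.1501. It stood at 7.72, 10.03, 12.6 and 12.9 in THY1 cells at P0, P7, P12 and P14, and 12.8, 19.5 and 14.8 in KIT cells at P7, P12 and P14. Oct4-GFP cells held 13.4 at P0 and 31.0 at P7, Id4-GFP cells 31.7 and VASA THY1 cells 27.9. The highest values were in the Oct4-GFP and Id4-GFP cells at P7. Kif26b stayed at or below 3.62 FPKM and Kif12 at or below 1.01. FPKM of Kif26b was 3.62, 0.559, 0.372 and 0.265 in THY1 cells at P0, P7, P12 and P14, and 0.400, 0.727 and 0.416 in KIT cells at P7, P12 and P14. At P0 and P7 the Oct4-GFP values were 1.75 and 0.882, with 0.856 in Id4-GFP and 0.554 in VASA THY1 cells.

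Kif4b, the pseudogene copy of Kif4, reached 1 FPKM in a single library. Its FPKM was 0.444, 0.0992, 0.163 and 12.0 in THY1 cells at P0, P7, P12 and P14, and 0.0518, 0.0974 and 0.588 in KIT cells at P7, P12 and P14. The GFP-sorted cells gave 0.0844 and 0.147 in Oct4-GFP at P0 and P7 and 0.0958 in Id4-GFP, and VASA THY1 gave 0.135. In THY1 cells at P14 it was thus at the level of Kif4 itself (12.5 FPKM), which was at its lowest there. No other group of Kif4b was above 0.588. The difference of log2(FPKM + 1) was 3.49 for THY1 cells at P14 against P12 and -3.04 for KIT against THY1 cells at P14. How fragments that fit both Kif4 and Kif4b were divided is not given in the sources used here, so both values in that library are uncertain.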

How the data were processed

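RNA was measured in sorted postnatal mouse testis cells. Per the labels' protocols, ribosomal RNA was depleted from total RNA and directional libraries were made. The submitters' processing notes name CASAVA, TopHat2 2.0.9, Cufflinks 2.1.1 and build mm9, with no order, annotation or way of combining replicates. The authors deposited FPKM in 1 table of 20889 genes and 11 columns, 1 per group, so the depth behind a value is unknown, no interval can be given and no test was run. In genes under 0.05 FPKM the most frequent step relative to P14 THY1 was 3.72 times in P7 THY1 (14.8% of 237 genes) and 0.96 to 2.04 times elsewhere, so fewer fragments may lie behind low values of P7 THY1.

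Differences of log2(FPKM + 1) were computed from the deposited FPKM. Python 3.11.15 ran the calculations through pandas 2.3.3, numpy 2.4.6 and scipy 1.17.1, and matplotlib 3.10.9 drew the plots. The pseudocount of 1 makes folds of low genes too small. The script was tested on simulated data. There were 9 comparisons. A gene was called at 2-fold (4-fold as an alternative) with 5 FPKM or more in the higher column. Values in every group are given for the 4 members of each class with the highest mean, the 3 with the largest range among those reaching 5 FPKM and those called at 4-fold. Members and lists were chosen with earlier results of these data known. The companion lists were those of kinesin partners, spindle partners, proliferation, dynein and dynactin, intraflagellar transport, meiotic prophase and late germ cells. The marker lists were those of germ, Sertoli, fibroblast and stroma, Leydig, myoid, macrophage, endothelial, red and neuronal cells. Of these, the Leydig median lay between 0.179 and 49.9 FPKM, the myoid median between 0.362 and 57.4, the macrophage median between 0.226 and 30.7, the endothelial median between 0.499 and 19.8 and the red cell median at or under 2.18. Alternatives were a pseudocount of 0.1, no minimum, 5 FPKM in both columns, quantile normalization, scaling to the germ cell genes, P7 VASA THY1 in place of P7 THY1 and, chosen after seeing the data, P0 OCT4-GFP in place of P0 THY1. Of the 30 samples, 8 bisulfite and 6 chromatin immunoprecipitation or input samples were not used here.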

Additional observations from a re-analysis of the deposited data

Results flagged for a closer look

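In 3 kinesins the difference between KIT and THY1 cells passed 2-fold at one age and pointed the other way by at least 1.5-fold at another, as differences of log2(FPKM + 1); the change between ages was not tested. Kif27 was 1.07 higher in KIT cells at P12, and its difference was -0.75 at P14. Kif9 had a difference of 0.78 at P12 and -2.86 at P14. Kifc3 had a difference of 0.70 at P7 and -1.39 at P14. All 3 negative values come from the P14 THY1 library, in which these genes stood at 22.5, 30.3 and 12.9 FPKM. On the germ cell scale the P14 value was 0.53 for Kif27, -1.70 for Kif9 and -0.22 for Kifc3. The median of the 9843 genes with a mean of 5 FPKM was 1.39 there in place of 0.12. The sign of Kif27 at P14 thus turned on that scale, but its value stayed below that median.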

How the results depend on the processing

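No paired analysis was possible because the table holds 1 value per group, and for the same reason no replicate could be left out. Counts are of the 42 kinesins, medians are differences of log2(FPKM + 1). Scaled to germ cell genes, the median of the 9843 genes with a mean of 5 FPKM was 1.39 in place of 0.12 for KIT against THY1 at P14, -1.11 in place of 0.08 for THY1 P7 against P0 and 0.72 in place of -0.0078 for KIT P14 against P12. With a 4-fold rule, 1 kinesin was higher in KIT than THY1 at P12, 0 higher and 3 lower at P14, 1 higher and 0 lower in THY1 P7 against P0, 1 higher and 0 lower in THY1 P12 against P7, 2 higher in THY1 P14 against P12, 0 higher in KIT P12 against P7, 1 lower in KIT P14 against P12, and 0 higher and 0 lower in OCT4-GFP P7 against P0. With 5 FPKM in both columns, 6 were higher in KIT at P12, 1 lower at P14, 0 lower in THY1 P7 against P0, 1 higher and 2 lower in THY1 P12 against P7, 1 higher and 2 lower in THY1 P14 against P12, 2 higher in KIT P12 against P7, 1 lower in KIT P14 against P12 and 1 lower in OCT4-GFP. With no minimum, 5 were lower in THY1 P7 against P0 and 4 in KIT P14 against P12. With a pseudocount of 0.1, 1 was higher in KIT at P7. With quantile normalization, 11 were higher in THY1 P7 against P0, 2 higher in KIT P12 against P7 and 1 lower in OCT4-GFP, and the transport median of THY1 P12 against P7 was -0.0019. With germ cell scaling, the higher counts in KIT against THY1 were 3 at P7, 20 at P12 and 26 at P14, with 3 lower at P14, where the mitotic median was 1.94 and the transport median 1.51. Over all genes 973, 1004 and 7441 were higher at P7, P12 and P14, and 558 were lower at P14. The same scaling gave 0 higher, 9 lower and medians of -0.13 (mitotic) and -0.87 (transport) in THY1 P7 against P0, a transport median of -0.044 in THY1 P12 against P7, 3 higher in THY1 P14 against P12, a mitotic median of -0.14 in KIT P12 against P7, 4 higher, 1 lower and medians of 0.82 (mitotic) and -0.041 (transport) in KIT P14 against P12, and 0 higher, 1 lower and a mitotic median of -0.10 in OCT4-GFP. Over all genes it gave 65 higher and 8423 lower in THY1 P7 against P0 and 1168 higher in THY1 P14 against P12. In KIT P14 against P12 it gave 3657 higher and 504 lower over all genes, and in OCT4-GFP 103 and 290. With P7 VASA THY1 in place of P7 THY1, 2 were lower and the transport median was -0.46 in KIT against THY1 at P7, 13 were higher in P7 against P0, and 7 were lower with a transport median of -0.46 in P12 against P7. With P0 OCT4-GFP in place of P0 THY1, 2 were higher in THY1 P7 against P0 and the medians were -0.063 (mitotic) and -0.56 (transport). Fewer calls under the stricter rules follow from those rules, and for the rest the cause was not tested. Depth is not in FPKM, so its limit on low values such as those of Kif2b and Kif12 could not be set.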
